A study of Mus musculus with 40 samples.

Results

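The values of 8 homeobox genes that specify neurons of the brainstem and spinal cord were followed through H3K27me3 and H3K4me3 peak calls of mouse oligodendrocyte precursor cells (OPCs), a glial cell type. The genes were given by name, as a list: *Isl1*, *Isl2*, *Mnx1*, *Phox2a*, *Tlx3*, *Lbx1*, *Evx1* and *Evx2*, 8 of 55536 annotated genes. A promoter was the stretch from 2000 bp upstream to 1000 bp downstream of an annotated transcript start on mm10, which gave the 8 genes 18 distinct promoters of 132850. Each of the 8 genes had a promoter wholly under H3K27me3 peaks in all 10 cultures. H3K4me3 peaks at the same promoters were shorter and varied from *Isl2*, which had one in every culture, to *Evx2*, which had none.

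OPCs were isolated on anti-PDGFRa plates from *AMGFAP-Cre;K27M* litters (spelled as in the sample labels, *hGFAP-Cre* in the study's methods) of postnatal day 5 to 7, pooled by region and genotype, and kept in proliferation medium without differentiation. The mutation replaces lysine 27 of histone H3.3 with methionine (K27M), and Cre was driven by the human *GFAP* promoter in neural stem and progenitor cells. Cultures of the other genotype are labelled control. All cultures had been grown with forskolin, CNTF, neurotrophin-3 and PDGF, and the mice were on an FVB background. Each mark was profiled by ChIP-seq in brainstem cultures 59 and 61 and in dorsal telencephalon cultures 59, 60 and 61 (cortex, hippocampus and corpus callosum), as matched K27M and control cultures, which gave 5 pairs and 20 libraries. A culture is a pool of mice, so the spread given here is between cultures and not between animals.

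Homeobox genes of this kind encode transcription factors that are switched on as neurons are born and fix which type of neuron forms. In cells of other lineages they are classical targets of Polycomb repressive complex 2, which places H3K27me3 and keeps them silent. Many such promoters lie in CpG-rich DNA and also carry H3K4me3, a mark of active or poised promoters, and are then called bivalent. H3.3 K27M is known to inhibit the methyltransferase of that complex.

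*Isl1* and *Isl2* encode LIM homeodomain factors of motor and sensory neurons, and *Mnx1* a factor of spinal motor neurons. On mm10, *Isl1* (ENSMUSG00000042258.13) lies at chr13:116298281-116309689 on the minus strand, *Isl2* (ENSMUSG00000032318.12) at chr9:55538672-55546180 on the plus strand, and *Mnx1* (ENSMUSG00000001566.9) at chr5:29473034-29478470 on the minus strand. *Phox2a* (ENSMUSG00000007946.11), a gene of noradrenergic and cranial motor neurons, lies at chr7:101818313-101822726 on the plus strand. *Tlx3* (ENSMUSG00000040610.7), a selector of glutamatergic dorsal neurons, lies at chr11:33200752-33203589, and *Lbx1* (ENSMUSG00000025216.9), a selector of GABAergic dorsal neurons, at chr19:45232684-45235812, both on the minus strand. *Evx1* (ENSMUSG00000005503.8) and *Evx2* (ENSMUSG00000001815.15) encode even-skipped type factors, of which *Evx1* marks V0 interneurons, and lie beside *Hox* clusters at chr6:52313498-52318378 (plus) and chr2:74652991-74659557 (minus).

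The 250 bases before the RefSeq start (GRCm38.p6, the assembly of mm10) are shown for the members with an H3K4me3 peak in the most cultures, *Isl1* and *Isl2*, and in the fewest, *Evx1* and *Evx2*. They read 5′ to 3′ on the strand of the gene, with each CG dinucleotide in capitals. They come from chr13:116309689-116309938, chr9:55540899-55541148, chr6:52313248-52313497 and chr2:74659558-74659807, in that order.
Isl1: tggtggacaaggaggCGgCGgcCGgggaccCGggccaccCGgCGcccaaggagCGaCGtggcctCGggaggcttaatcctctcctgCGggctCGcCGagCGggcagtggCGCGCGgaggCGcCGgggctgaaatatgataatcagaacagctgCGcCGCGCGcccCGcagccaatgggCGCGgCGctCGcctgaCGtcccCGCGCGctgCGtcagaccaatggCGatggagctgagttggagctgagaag
Isl2: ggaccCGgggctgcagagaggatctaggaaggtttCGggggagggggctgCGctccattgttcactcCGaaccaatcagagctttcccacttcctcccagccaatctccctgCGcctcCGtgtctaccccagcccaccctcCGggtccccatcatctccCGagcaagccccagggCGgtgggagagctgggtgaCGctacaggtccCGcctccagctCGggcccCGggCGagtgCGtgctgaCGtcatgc
Evx1: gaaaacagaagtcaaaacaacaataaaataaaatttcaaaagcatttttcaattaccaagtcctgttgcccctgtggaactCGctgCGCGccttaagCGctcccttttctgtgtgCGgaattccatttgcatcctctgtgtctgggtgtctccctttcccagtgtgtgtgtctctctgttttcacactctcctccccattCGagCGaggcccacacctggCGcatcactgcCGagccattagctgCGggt
Evx2: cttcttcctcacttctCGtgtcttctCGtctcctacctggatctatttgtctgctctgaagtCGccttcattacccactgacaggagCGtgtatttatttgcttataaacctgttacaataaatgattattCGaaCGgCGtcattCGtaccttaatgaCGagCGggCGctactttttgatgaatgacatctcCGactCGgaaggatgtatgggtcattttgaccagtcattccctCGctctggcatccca
These stretches hold 33 CG in *Isl1*, 16 in *Isl2*, 10 in *Evx1* and 14 in *Evx2*. In the 300 bases from 250 before to 50 after the start, which the RefSeq table gave for 7 of the 8 members (not *Lbx1*), *Isl1* had 37 CG, *Phox2a* 30, *Mnx1* 26, *Isl2* 23, *Tlx3* 18, *Evx2* 16 and *Evx1* 12. The median over all 32851 promoters of the table was 7, and 5.58% of them had at least as many as *Isl1* and 39.6% at least as many as *Evx1*.

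The libraries differed in ways that touch the members. H3K27me3 lists held 12715 to 64808 peaks in controls and 4739 to 15753 in K27M cultures. H3K4me3 lists held 20961 to 31200 peaks, and telencephalon controls 60 and 61 stood apart: their highest fold enrichment over input was 157 and 104, against 23.4 to 64.7 in the other 8 libraries. The median H3K4me3 fold enrichment was lowest in telencephalon control 59, at 3.57. All 5 OPC markers (*Olig1*, *Olig2*, *Sox10*, *Pdgfra* and *Cspg4*) had a promoter H3K4me3 peak and no H3K27me3 peak in all 10 cultures. None of the 3 microglial markers and 1 of the 3 endothelial markers (*Cldn5*) had an H3K4me3 peak in any culture, whereas all 3 neuronal markers (*Rbfox3*, *Snap25* and *Syt1*) had one in all 10. Read depth is not recorded in the peak lists, and a promoter without a peak may still hold signal below the threshold of the caller.

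To determine how far H3K27me3 covered the members, the base pairs of promoter under peaks were taken for the best covered promoter of each gene. This was 3000 of 3000 bp for each of the 8 genes in each of the 10 libraries, a pattern that 0.922% of all genes shared. A promoter H3K27me3 peak of any length in all 10 cultures was found for 3.28% of all genes. Of the 631 genes wholly covered in all 5 controls, 81.1% were also wholly covered in all 5 K27M cultures, and the 8 members were among them. Coverage cannot exceed the 3000 bp of the window, and all members were at that limit, so this measure could not show a change within the longer peaks. Single promoters differed at *Phox2a* and *Isl2*: the first start of *Phox2a* had 2122 to 3000 bp covered, and the *Isl2* transcript whose start lies at −2476 bp from the main start had 2252 to 3000 bp.

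In K27M cultures the strength of the peaks set *Phox2a* below every other member (plot of H3K27me3 fold enrichment by culture). Among controls it was not always the lowest. In brainstem control 59 *Isl2* had 7.76 and *Tlx3* 7.42, against 8.02 for *Phox2a*. In telencephalon control 61 *Tlx3* had 8.31, against 9.35 for *Phox2a*. In the other controls *Phox2a* was the lowest member. Fold enrichment at *Isl1* was 9.98 and 11.1 in brainstem controls 59 and 61 and 26.8 and 33.0 in brainstem K27M. In telencephalon cultures 59, 60 and 61 it was 5.99, 16.9 and 11.6 in controls and 11.5, 25.9 and 29.3 in K27M. *Isl1* was thus higher in K27M in all 5 pairs, and the brainstem groups did not overlap, as was so in this direction for 66.1% of the 1820 genes with a peak in all 10 libraries. *Mnx1* had 9.25 and 9.24 in brainstem controls, 24.4 and 31.0 in brainstem K27M, 4.43, 15.4 and 10.3 in telencephalon controls, and 9.26, 22.8 and 28.3 in telencephalon K27M. *Lbx1* had 10.0 and 9.67 in brainstem controls, 23.2 and 29.3 in brainstem K27M, 3.89, 21.2 and 10.9 in telencephalon controls, and 9.55, 30.9 and 33.5 in telencephalon K27M. The same separation in the brainstem and the same direction in every pair held for *Mnx1* and *Lbx1*. *Phox2a* instead had 8.02 and 4.92 in brainstem controls and 7.44 and 8.94 in brainstem K27M, so that its brainstem pairs went in opposite directions. In the telencephalon it had 2.57, 14.6 and 9.35 in controls and 3.58, 10.8 and 12.5 in K27M.

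**Figure D1:**
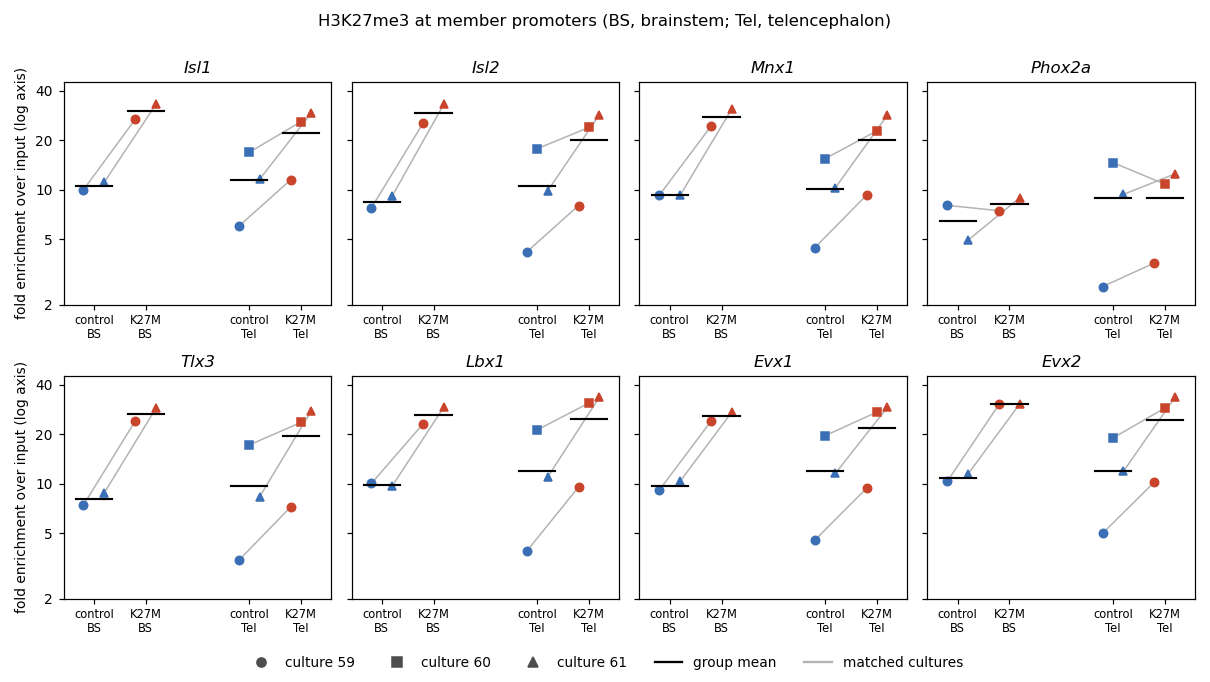
Fold enrichment over input of the strongest H3K27me3 peak at each member's promoters (log axis) in control (blue) and K27M (red) cultures of brainstem (BS) and telencephalon (Tel), with matched cultures joined and group means as bars. Lines rise in all 5 pairs for every member except *Phox2a*, which goes from 14.6 to 10.8 in telencephalon culture 60 and from 8.02 to 7.44 in brainstem culture 59.

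On the log2 scale, the mean paired change in fold enrichment ran from 1.13 ± 0.39 (SD, n = 5 pairs) for *Evx1* to 1.34 ± 0.56 for *Tlx3* among 7 members, and was 0.24 ± 0.51 for *Phox2a*. These 7 members were higher in 5 of 5 pairs, as were 46.4% of the 1820 genes with a peak in all 10 libraries. The exact two-sided sign-flip test gave p = 0.0625 for each of the 7, the smallest that 5 pairs allow, and 0.125 after Benjamini-Hochberg adjustment over the 1820 genes. It gave p = 0.438 for *Phox2a* in the same exact test (0.539 adjusted). The median change was 1.23 over the members, 1.16 over the 512 genes wholly covered in all 10 libraries and 0.43 over the 1820 genes. Fold enrichment is relative to the rest of its library and the calls did not use the spike-in of fly chromatin, so more H3K27me3 at these genes and less elsewhere cannot be told apart.

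Next, the strongest promoter peak was ranked among all peaks of its own library. Its percentile was 97.4 or higher in every library for *Isl1*, *Isl2*, *Mnx1*, *Evx1* and *Evx2*. The lowest value was 93.4 for *Tlx3* and 96.4 for *Lbx1*, both in telencephalon control 59. *Phox2a* ranked at 99.7, 96.1, 59.6, 99.8 and 99.9 in controls (brainstem 59 and 61, then telencephalon 59, 60 and 61) and at 90.8, 94.5, 84.2, 97.2 and 95.3 in their K27M partners. It was lower in K27M in 4 pairs and higher in telencephalon 59, with a mean difference of 1.39 ± 13.3 percentile points (SD, n = 5, exact sign-flip p = 1). Without that culture the mean difference was −4.41 points. No member ranked higher in K27M in 5 of 5 pairs, which 0.33% of the genes with a peak in all 10 libraries did. The median change was −0.0618 points over the members and −0.339 over the 512 genes wholly covered in all 10 libraries. The lists differ in length, and with equal numbers of peaks in every library the median over the members was 0.998 points.

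The H3K27me3 peaks reached beyond the promoters, and each member had its own range of lengths (plot of peak length by gene). The merged peak over the start site was 28133 to 32008 bp long at *Isl1*, 12102 to 20449 bp at *Isl2*, 29396 to 40145 bp at *Mnx1* and 14939 to 17733 bp at *Tlx3*. That of *Phox2a* was the shortest, at 5574 to 8233 bp. Peaks at *Mnx1* were shorter in K27M in 5 of 5 pairs, as were 40.9% of the 995 genes with a peak over their first annotated base in all 10 libraries. Those at *Phox2a* were shorter in 4 of 5, and 72.6% of these genes were shorter in at least 4. *Lbx1* was longer in K27M in all 5 pairs, as 0.603% of these genes were, and by most in the brainstem, where controls had 25609 and 25726 bp and K27M cultures 34145 and 38406 bp. In brainstem controls 59 and 61 the *Lbx1* peak began at −11256 and −11416 bp. Further upstream within 20 kb, these controls had separate H3K27me3 peaks, which reached to −12926 and −12161 bp beside a gap or a short peak. The longer K27M peaks thus took in sequence that was also under peaks in controls. In the telencephalon *Lbx1* had 23562 to 24906 bp in controls and 23757 to 25828 bp in K27M, and these groups overlapped. No other protein-coding gene started inside the peaks of these 6 members in any library.

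**Figure D2:**
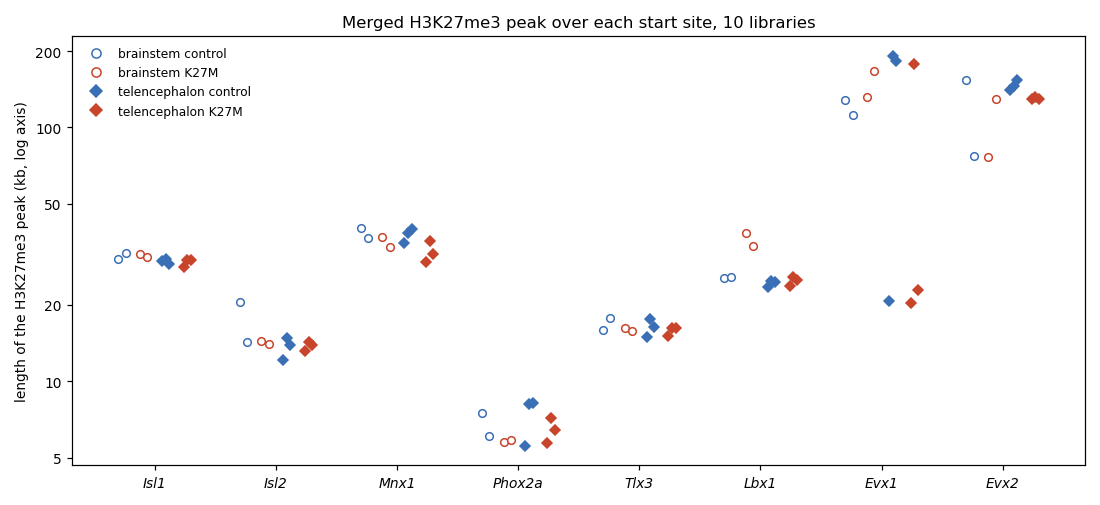
Length of the merged H3K27me3 peak over each member's start site (log axis) in the 10 libraries, with brainstem as open circles and telencephalon as filled diamonds, controls in blue and K27M in red. *Phox2a* has the shortest peaks (5574 to 8233 bp), and *Evx1* splits between 20401 to 22788 bp in 3 telencephalon libraries and 111684 bp or more in the other 7.

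The even-skipped genes shared their peaks with neighbouring *Hox* genes, which encode the position of a cell along the body axis. The peak over *Evx2* was 76163 to 153740 bp long and held the starts of *Hoxd3*, *Hoxd4*, *Hoxd8*, *Hoxd9*, *Hoxd10*, *Hoxd11*, *Hoxd12* and *Hoxd13* in all 10 libraries. Over *Evx1* the peak was 111684 to 191796 bp long in 7 libraries, where it held 4 to 13 other coding starts, most of them *Hoxa* genes. In telencephalon control 59, K27M 59 and K27M 61 it was 20636, 20401 and 22788 bp long and held no other coding start. The fold enrichment of both genes is therefore not independent of that of their neighbours.

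H3K4me3 told the members apart. *Isl2* was the single member with a promoter peak in all 10 cultures, a pattern shared by 28.7% of all genes. *Isl1* had one in 9 cultures, *Phox2a* in 7, *Tlx3* in 6, *Lbx1* in 4, *Mnx1* in 3, *Evx1* in 2 and *Evx2* in none. Where *Isl1* had a peak, its summit lay at −326 to −190 bp from the start, upstream of the gene. The strongest summits of *Isl2* lay at −193 to 51 bp from its start, 67 to 311 bp from the start of the antisense transcript *Gm17226*, and ChIP-seq does not separate strands. The 3 summits of *Mnx1* lay 234 to 498 bp downstream of the start, in coding sequence. The 2 of *Evx1* lay 390 and 428 bp downstream, also in coding sequence, 383 and 421 bp from the start of the antisense transcript *Evx1os*. Those of *Tlx3* ran from −455 to 150 bp, 11 to 616 bp from the start of the non-coding *Gm12116*.

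*Phox2a* had separate H3K4me3 sites at either end of the gene. In 6 libraries a summit lay at −48 to 79 bp from the first start. In 7 libraries a summit lay 3595 to 3739 bp downstream, in a coding exon, where its peak reached into the window of the second annotated start, which lies 2433 bp downstream of the first. In brainstem control 61 that far peak was the only one and put 5 bp of promoter under a peak. In telencephalon control 60 the far site had a fold enrichment of 42.9 and the site at the start 18.1.

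**Figure D3:**
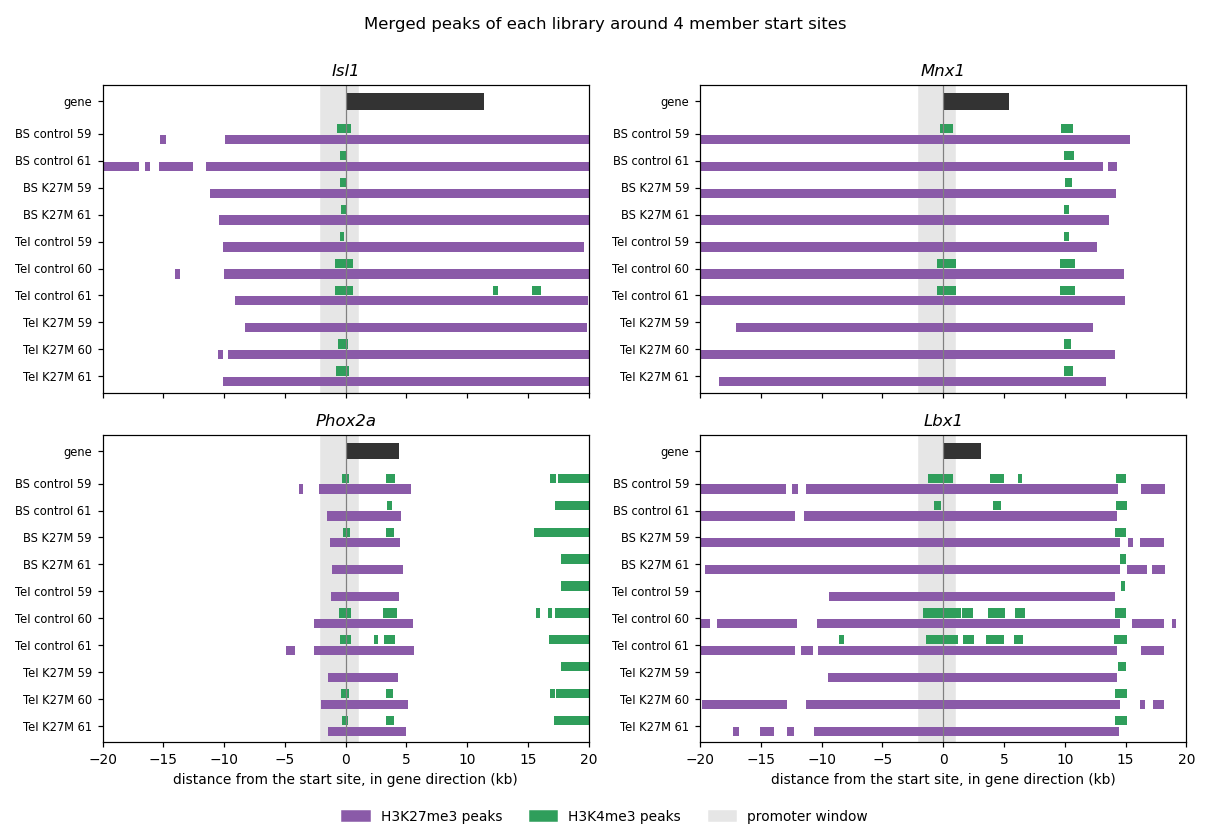
Merged H3K27me3 (purple) and H3K4me3 (green) peaks of the 10 libraries within 20 kb of 4 start sites, in the direction of the gene, with the promoter window shaded and the gene as a black bar. H3K27me3 spans the window at *Isl1*, *Mnx1* and *Lbx1* in every library, while H3K4me3 in the window appears in 3 control libraries at *Mnx1* and 4 at *Lbx1*, and in no K27M library at either.

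To determine how H3K4me3 at the members differed with K27M, promoter base pairs under peaks were compared within the matched cultures (plot of H3K4me3 coverage by culture). *Lbx1* had 2130 and 567 bp in brainstem controls 59 and 61 and 0, 2684 and 2384 bp in telencephalon controls 59, 60 and 61, against 0 bp in all 5 K27M cultures. *Mnx1* had 1022 and 0 bp in brainstem controls and 0, 1499 and 1536 bp in telencephalon controls, and also 0 bp in all 5 K27M cultures. *Evx1* had promoter peaks in telencephalon controls 60 and 61 alone, with 736 and 622 bp. For these 3 genes, every culture with a promoter peak was thus a control. Some absences depend on the edge of the window. Peaks outside it covered 10.3% of the *Evx1* gene in brainstem control 59. At *Evx2* they covered 7.92% of the gene in brainstem control 59 and 13.7 and 15.7% in telencephalon controls 60 and 61.

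At *Isl1* the brainstem controls had 1126 and 597 bp and their K27M partners 607 and 425 bp. In the telencephalon it had 287, 1495 and 1517 bp in controls and 0, 824 and 1056 bp in K27M. *Isl1* was the member with lower coverage in K27M in 5 of 5 pairs, which 0.665% of the 20007 genes with an H3K4me3 peak in any library shared, although its groups overlapped in both regions. At *Tlx3* the brainstem controls had 1266 and 451 bp and their K27M partners 537 and 0 bp. The gene had 0, 1611 and 2018 bp in telencephalon controls and 0, 0 and 751 bp in telencephalon K27M. In telencephalon K27M 60, peaks outside the window covered 19.2% of the *Tlx3* gene. At *Isl2* the brainstem controls had 2059 and 1016 bp and their K27M partners 683 and 459 bp, and these groups did not overlap. The brainstem groups of *Lbx1* did not overlap either, and 4.46% of the 20007 genes were lower in both brainstem K27M cultures than in both controls. In the telencephalon *Isl2* had 596, 2663 and 2535 bp in controls and 647, 2292 and 1523 bp in K27M, so that culture 59 was the single pair of any member with a higher value in K27M. At *Phox2a* the brainstem controls had 612 and 5 bp and their K27M partners 591 and 0 bp. The gene had 0, 955 and 917 bp in telencephalon controls and 0, 638 and 552 bp in telencephalon K27M.

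**Figure D4:**
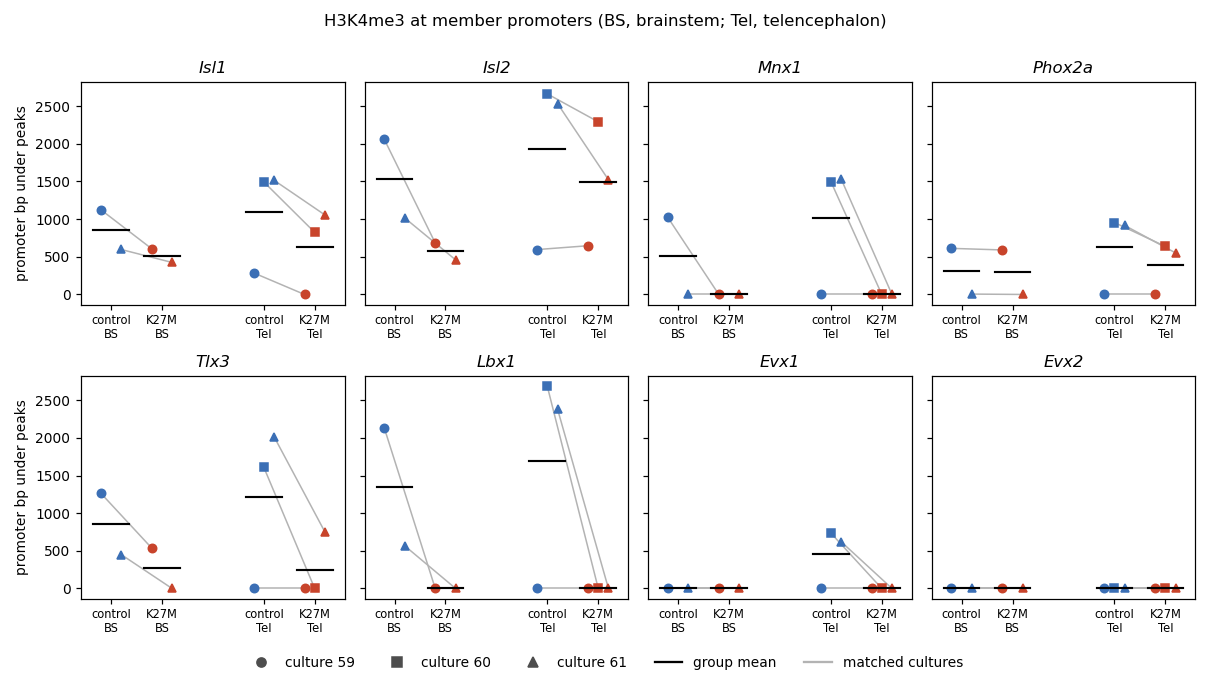
Promoter base pairs under H3K4me3 peaks for each member in control (blue) and K27M (red) cultures of brainstem (BS) and telencephalon (Tel), with matched cultures joined and group means as bars. Lines fall or stay level in every pair except *Isl2* in telencephalon culture 59 (596 to 647 bp), *Lbx1* and *Mnx1* lie at 0 in all K27M cultures, and *Evx2* lies at 0 throughout.

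The mean paired difference was −1553 ± 1192 bp (SD, n = 5 pairs) for *Lbx1*, −812 ± 641 bp for *Tlx3*, −811 ± 768 bp for *Mnx1*, −653 ± 556 bp for *Isl2*, −422 ± 196 bp for *Isl1*, −272 ± 374 bp for *Evx1* and −142 ± 183 bp for *Phox2a*. Exact two-sided sign-flip p ran from 0.0625 for *Isl1* to 0.5 for *Evx1*, and the adjusted values over 20007 genes were 0.902 to 0.933, so none passed the threshold of 0.05. Over all genes, 0 of 20007 had p below 0.05, since 5 pairs cannot give one. The median difference was −538 bp over the members, 38.8 bp over all genes tested, and −315 bp over the 444 of them that were wholly under H3K27me3 in all 10 libraries. The member median counts *Evx2* as 0 bp, although it had no H3K4me3 peak and was not among the genes tested. The middle of the 7 members with a peak was *Isl2*, at −653 bp. In 6 of 8 members, all of them among the 7 with a peak, coverage was higher in K27M in no pair and lower in at least 1. This held for 7.88% of the 20007 genes and 59.7% of those 444. Likewise, 6.31% of the 444 were lower in 5 of 5 pairs. This class of wholly covered genes was chosen after the data were seen.

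The strength of the whole H3K4me3 library also differed within pairs. The median H3K4me3 fold enrichment in control and K27M was 9.53 and 6.55 in brainstem 59, 13.8 and 9.26 in telencephalon 60 and 10.1 and 7.92 in telencephalon 61, and thus lower in K27M. It was 7.03 and 8.78 in brainstem 61 and 3.57 and 4.98 in telencephalon 59, and thus higher in K27M. In brainstem 61, 5 members had lower coverage in K27M and none had higher, and its K27M list was also the shortest of the 10. By the paper's read totals, duplicates included, this K27M H3K4me3 library also had fewer reads than its control. The same was true of every pair except brainstem 59, where K27M had more. The gap was narrow in telencephalon 61, and most reads of telencephalon control 60 were duplicates. In telencephalon 59, 1 member was lower (*Isl1*), 1 was higher (*Isl2*) and 6 were at 0 bp in both cultures. Using the same number of peaks in every library, a choice made after the data were seen, gave a median difference of −504 bp over the members. The part of library strength in these differences was not tested further.

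Of the 7 members with an H3K4me3 peak in both telencephalon controls 60 and 61, *Lbx1*, *Mnx1* and *Evx1* had none in any telencephalon K27M culture. The same was true of 2.15% of all genes with a peak in both controls and of 28.7% of such genes wholly under H3K27me3 in all 10 libraries. Ranks of the H3K4me3 peaks within their libraries, with a missing peak counted as 0, were lower in K27M on average for the 7 members with a peak. The mean paired difference was −34.3 ± 29.5 percentile points for *Lbx1* (SD, n = 5, exact sign-flip p = 0.125) and −18.0 ± 11.1 for *Isl1* (p = 0.0625 in the same exact test). The median over the members, with *Evx2* counted as 0, was −16.1 points, against 1.04 over all 20007 genes and −12.1 over the 444 wholly under H3K27me3. The middle of the 7 members with a peak was *Isl1*. *Lbx1* had no peak in K27M, so its value restates that absence.

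Promoter states were then assigned from consensus peaks, which had to recur in at least 2 cultures of a group. In brainstem controls 5 of 8 members were bivalent (*Isl1*, *Isl2*, *Phox2a*, *Tlx3* and *Lbx1*), against 4.59% of all genes, and *Mnx1*, *Evx1* and *Evx2* carried H3K27me3 only. The call for *Phox2a* rests on its far peak in the coding exon. That peak put 80 and 5 bp of the second promoter under peaks in brainstem controls 59 and 61. A peak at the first start was present in brainstem control 59 and not in 61. In telencephalon controls 7 of 8 were bivalent, against 7.3% of all genes, and *Evx2* carried H3K27me3 only. The higher count in the telencephalon rests on controls 60 and 61: without either of them 2 members were bivalent, and 2 when a peak was required in every control. In brainstem controls the count was 2 with a fold enrichment of at least 3 or with equal numbers of peaks. No member had H3K4me3 only or was unmarked in any group.

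The same assignment in K27M cultures, added after the data were seen, left 2 members bivalent in the brainstem and 3 in the telencephalon. Of the 5 members bivalent in brainstem controls, *Phox2a*, *Tlx3* and *Lbx1* had H3K27me3 only in brainstem K27M. For *Phox2a* the change in coverage was small, from 612 to 591 bp in brainstem 59 and from 5 to 0 bp in brainstem 61. Over all 2551 genes bivalent in brainstem controls, 6.47% had H3K27me3 only in brainstem K27M, and 31.5% went to H3K4me3 only. Of the 7 members bivalent in telencephalon controls, *Mnx1*, *Tlx3*, *Lbx1* and *Evx1* had H3K27me3 only in telencephalon K27M. Of the 4056 genes bivalent there, 7.1% did so and 43.4% went to H3K4me3 only. *Isl1* and *Isl2* were bivalent in all 4 groups. All members were wholly under H3K27me3 in every culture, so a member that lost its consensus H3K4me3 could only be called H3K27me3 only. The shares over all bivalent genes include genes without that limit. The share among wholly covered genes is not given here, so these counts cannot show that the members differ from that class.

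Between regions, the control cultures overlapped for every member. H3K27me3 coverage was 3000 bp in all 5 controls. H3K4me3 coverage was higher on average in telencephalon controls for 7 members, by 238 bp (*Isl1*) to 501 bp (*Mnx1*), though none passed the test. Exact permutation p over the 10 splits of 2 against 3 cultures was 0.4 to 0.8 for these 7, where 0.1 is the smallest possible. For *Evx1* the difference of 453 bp was larger than the SD of 396 bp in the telencephalon, and both brainstem controls were at 0 bp. Coverage was higher in every telencephalon than in every brainstem control for 0 of 8 members and for 0.925% of the 20007 genes. The sign also depended on 1 library: the median difference over the members was 346 bp, and −18.3 bp without brainstem culture 61. With cultures 59 and 61 paired across regions as a replicate block, it was 95.2 bp, and the difference at *Lbx1* turned from 341 to −156 bp.

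The paralogs *Tlx1*, *Tlx2* and *Lbx2* were wholly covered by H3K27me3 in all 10 cultures. Their H3K4me3 peaks were found in 2 or 3 cultures each. *Tlx1* had 1958 and 1189 bp in telencephalon controls 60 and 61 and 795 bp in brainstem control 59. *Tlx2* had 2282 and 1713 bp and *Lbx2* 1441 and 1423 bp in telencephalon controls 60 and 61, and *Lbx2* also 266 bp in telencephalon K27M 61. All 3 were bivalent in telencephalon controls and had H3K27me3 only in the other groups.

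Among 22 other homeobox genes of brainstem and spinal neurons and their progenitors, 18 had a promoter H3K27me3 peak in all 10 cultures and 14 were wholly covered in all 10. The exceptions to the 18, named after their values were seen, were *Gsx1* with such a peak in 0 cultures, *Dbx2* in 3, *Nkx2-2* in 5 and *Onecut1* in 9. *Nkx2-2*, which also acts in the oligodendrocyte lineage, had 2946 to 3000 bp under H3K4me3 in every culture. Of the 21 with an H3K4me3 peak in any library, 17 were higher in K27M in no pair and lower in at least 1, and *Lhx1*, *Lhx4*, *En1* and *Pou4f1* were lower in 5 of 5. The median difference over the 21 was −535 bp. That over the members, −538 bp, counts *Evx2*, which had no H3K4me3 peak, as 0 bp. The middle of the 7 members with a peak was *Isl2*, at −653 bp. State differed between regions in the controls for 7 of the 22. Of these *Barhl1*, *Hmx2*, *Lhx3*, *Lhx5* and *Nkx6-1* had H3K27me3 only in the brainstem and were bivalent in the telencephalon, and *Dbx2* had H3K4me3 only in the brainstem and was bivalent in the telencephalon.

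The protein-coding genes most like each member were those with the smallest mean absolute difference in promoter coverage over the 20 libraries. For *Evx2* the difference was 0 bp for 13 genes, among them *Hoxc11*. For *Evx1* they were *4930447C04Rik* (2.05 bp) and *Hoxc9* (6.95 bp), and for *Mnx1* they were *Hmx2* (22.9 bp) and *Sp9* (38.0 bp). *Phox2a* was closest to *Ikzf3* (47.2 bp) and *Irx4* (47.7 bp), and *Isl1* to *Hs3st6* (64.35 bp) and *Sowahb* (64.5 bp). *Tlx3* was closest to *Dlx4* (84.2 bp), *Lbx1* to *Nkx6-1* (94.3 bp) and *Pax2* (105 bp), and *Isl2* to *Fezf2* (184 bp) and *Emx1* (189 bp). No member was among the nearest genes of another member.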

How the data were processed

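The data were 20 lists of ChIP-seq peaks, 10 for H3K27me3 and 10 for H3K4me3. Reads were aligned by the authors to mm10 using bwa (0.7.17-r1188) within the nf-core ChIP-seq pipeline, excluded the ENCODE blacklist, and ran MACS2 (2.2.7.1) per library with the matching input, in broad mode for H3K27me3 and narrow mode for H3K4me3. For each peak the deposited files hold a ratio (fold enrichment relative to input) and −log10 values of p and of q, all computed by the authors. Replicates were not pooled and the spike-in did not enter the calls. Depth is not in the files, and the read totals in the paper's reporting summary were not used to adjust any value.

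Peaks were merged within a library in Python (numpy 2.4.6), and promoters came from GENCODE M21 on GRCm38, where the paper used M25. Coverage is the largest number of promoter base pairs under peaks over the promoters of a gene, with at least 1 bp of overlap. Consensus peaks followed the rule of the paper's methods, in code of its own, and needed at least 2 cultures. A single peak had to have p of 1e-06 or less for H3K4me3 and 1e-04 or less for H3K27me3. With the overlapping peaks of other cultures, its p combined by Fisher's method had to be 1e-10 or less for H3K4me3 and 1e-08 or less for H3K27me3. No single peak had to pass the stricter limit. The functions were tested on simulated data.

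The effect of genotype was tested over the 5 pairs of cultures that the study assayed together, by a two-sided exact sign-flip test (32 arrangements) with Benjamini-Hochberg adjustment over all genes with a peak, and regions by an exact permutation test. As a check, deviations in peak presence from the group means correlated across genes between paired libraries with r from −0.0921 to 0.148 for H3K27me3 and from −0.0436 to 0.227 for H3K4me3. Only telencephalon 60 for H3K27me3 and telencephalon 59 for H3K4me3 were above 0.1. The check thus gave little support for the pairing, which rests on the study's methods. A p-value is the share of arrangements with a difference at least as large as the one seen. The SD gives the spread between cultures or pairs of cultures.

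The members, the paralogs, the 22 related genes and the markers were chosen with earlier results of these data known. Genes named beside them were the related genes whose control state differed between regions (at most 6), the 2 coding genes nearest to each member in coverage, and coding genes starting in the same H3K27me3 peak. One related gene, *Drgx*, was matched through its RefSeq synonym. Some items that these rules select are not reported here.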

Additional observations from a re-analysis of the deposited data

How the results depend on the processing

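Peak lists limit every value: they hold no read depth, and a lost peak can be a weaker signal. The read totals that the paper gives for each library did not enter any value. The median change in H3K27me3 coverage was 0 bp and the median H3K4me3 differences were negative under every alternative run, while 7 members rather than 8 had an H3K27me3 peak in every culture at a fold enrichment of at least 3 or with equal numbers of peaks. The median H3K4me3 coverage difference ran from −435 to −642 bp, and the median rank difference from −10.8 to −19.1 points, when a culture was left out. No consensus could be built for the brainstem with 1 culture left.

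With a fold enrichment of at least 3, 0 members had an H3K4me3 peak in every culture and 2 were bivalent in brainstem controls, and the same values, 0 and 2, came from equal numbers of peaks. With at least 500 bp under peaks, 0 members had H3K4me3 in every culture. With a peak required in every control, 2 members were bivalent in the telencephalon. When a culture was left out, 1 to 2 members had H3K4me3 in every culture, 2 to 7 were bivalent in telencephalon controls, and the median regional H3K4me3 difference ran from −18.3 to 817.5 bp. The median H3K27me3 rank difference turned positive, to 0.253 points at −log10 q of at least 3, 1.21 at a fold enrichment of at least 3 and 0.998 with equal numbers of peaks. For these 3 settings *Isl2* changed to 0.253, 2.04 and 1.49 points. For the latter 2 *Mnx1* changed to 1.29 and 0.625 and *Evx1* to 1.07 and 0.101. Ranking by −log10 q turned *Phox2a* to −4.54, *Tlx3* to −0.319, *Lbx1* to −0.0926 and *Evx2* to −0.0875 points. Over the cultures left out they ran from −4.41 to 3.96, −0.314 to 0.59, −0.37 to 0.592 and −0.109 to 0.136 points, lowest without telencephalon 59. Regional H3K4me3 differences ran from −26.3 to 644 bp for *Isl1*, −128 to 1062 for *Isl2*, −10.3 to 1012 for *Mnx1*, −56.3 to 956 for *Tlx3* and −441 to 1186 for *Lbx1*, lowest without brainstem 61. For *Lbx1* they were −156 bp without telencephalon 60 and −6.5 without 61, and for *Tlx3* −53.0 without 61 and −18.2 in K27M cultures. The cause of these changes was not tested.

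Without the replicate block, permuting labels within regions left the median differences at −538 bp (H3K4me3 coverage), −16.1 points (H3K4me3 rank), 0 bp and −0.0618 points (H3K27me3), and changed no call. For H3K4me3 at *Lbx1* the exact permutation p was then 0.0667. For H3K27me3 log2 fold enrichment the same exact permutation p, not adjusted, was 0.05 for every member except *Phox2a* (0.583). None of these was below the threshold of 0.05. With a replicate block on cultures 59 and 61, the median regional difference was 95.2 bp for H3K4me3 and 0 bp for H3K27me3, and that of *Lbx1* was −156 bp.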
